A study of Mus musculus with 9 samples.

Results

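The 34 genes described here are proliferation and DNA replication genes: the markers by which dividing cells are recognised, the factors that load and run the replication machinery, and the kinases, cyclins and motors of mitosis. They were chosen by gene symbol for their roles in the cell cycle, and every probe that the array files assign to one of them was taken. All 34 had a probe, 60 probes in all. A probe entered the tests when all 3 arrays of some group showed it well above background. This held for 43 of the 60 probes, so that 30 of the 34 genes were among the 24150 features tested.

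RNA came from glomeruli, the filtering capillary tufts of the kidney, which were isolated with magnetic beads from male BTBR mice 22 weeks old. The 3 groups, of 3 arrays each, were wild-type mice given vehicle, ob/ob mice given vehicle, and ob/ob mice given enarodustat in the food, with 18 weeks of treatment in each. The ob/ob mice lack functional leptin and on the BTBR background become obese and diabetic. Enarodustat inhibits the prolyl hydroxylases that mark the hypoxia-inducible factors for destruction. No wild-type mice given enarodustat are among these samples, and the labels do not say whether an array holds the RNA of a single mouse or of several. Where it is not known that the samples of a group are separate animals, p-values measure only the spread between these samples.

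In a cell that enters the cycle, D and E cyclins with their kinases inactivate the pocket proteins that hold E2F transcription factors in check. E2F targets such as the Mcm, Pcna and Rrm2 genes are then transcribed for S phase. Before S phase, Cdc6 and Cdt1 load the MCM helicase onto replication origins. Genes of mitosis follow later, driven by Foxm1, B-Myb and release from the DREAM repressor complex, which acts through the CHR element of their promoters. CCAAT boxes often lie near that element but are not the site of DREAM. In the adult kidney few glomerular cells divide, podocytes least of all.

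Promoter sequences are shown for 4 genes because they set the E2F-regulated and the mitotic members side by side. The sequences are those of RefSeq on build GRCm38.p6, from 230 bases before to 20 bases after the annotated start of the gene, written 5′ to 3′ on the gene's strand, which is the minus strand for all 4. From the promoter table used, 27 of the 34 genes were counted. Ccne2, Ccna2, Mcm4, Kif20a, Foxm1, Tpx2 and Aurkb were left out. Capitals mark matches, on either strand, to the E2F-type letters TTTGGCGC, TTTCGCGC or TTTCCCGC, to the CHR letters TTTGAA or to CCAAT. Mcm6 lies at chr1:128359686-128359935, Mcm3 at chr1:20820293-20820542, Cdk1 at chr10:69352893-69353142 and Ccnb2 at chr9:70421535-70421784.
Mcm6: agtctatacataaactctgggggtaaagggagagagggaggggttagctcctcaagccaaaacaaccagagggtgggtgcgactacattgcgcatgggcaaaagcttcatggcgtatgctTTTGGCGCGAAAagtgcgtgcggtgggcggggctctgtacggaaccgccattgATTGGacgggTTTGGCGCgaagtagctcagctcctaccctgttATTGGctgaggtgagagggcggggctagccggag
Mcm3: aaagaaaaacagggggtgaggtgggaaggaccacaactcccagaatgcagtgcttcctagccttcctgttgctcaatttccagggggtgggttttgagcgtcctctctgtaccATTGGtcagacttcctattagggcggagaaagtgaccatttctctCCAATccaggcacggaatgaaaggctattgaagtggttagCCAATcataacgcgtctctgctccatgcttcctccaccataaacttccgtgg
Cdk1: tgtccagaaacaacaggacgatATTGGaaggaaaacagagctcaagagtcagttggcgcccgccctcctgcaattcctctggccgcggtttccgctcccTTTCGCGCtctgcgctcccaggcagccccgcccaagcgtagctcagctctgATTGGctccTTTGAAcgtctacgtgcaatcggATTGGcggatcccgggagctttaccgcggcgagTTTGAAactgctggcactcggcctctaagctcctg
Ccnb2: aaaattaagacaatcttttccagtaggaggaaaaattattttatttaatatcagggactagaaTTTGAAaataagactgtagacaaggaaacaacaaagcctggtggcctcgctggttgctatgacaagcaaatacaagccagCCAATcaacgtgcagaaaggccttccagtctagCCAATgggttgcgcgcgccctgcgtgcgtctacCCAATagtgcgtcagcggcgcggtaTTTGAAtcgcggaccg

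The Mcm6 window holds 3 E2F-type matches, of which a pair overlaps, and 2 CCAAT matches, while the Mcm3 window holds 3 CCAAT matches and neither of the other motifs. Cdk1 has 1 E2F-type, 2 CHR and 3 CCAAT matches, and Ccnb2 has 2 CHR and 3 CCAAT matches. Among all 27025 promoters of the table, cut to the same window, 1.67% held an E2F-type match, 15.7% a CHR match and 34.3% a CCAAT match. The members' windows held them in 5, 9 and 20 of 27 genes. E2f1 is among the 27 and had no match. Its entry appears to start inside the gene, so its window may not be its promoter. Of the 9 genes with a CHR match, 8 were among the 15 promoters of mitotic genes and cycling-cell markers and 1, Mcm2, among the other 12. A match says only that these letters are in the window.

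Throughout, a value is log2 of the processed spot signal minus the array's own 75th percentile, so that 0 is the brightness of the 75th percentile probe, and a difference of 1 is 2-fold. Values of different probes are not compared, since probes differ in brightness for reasons other than RNA. Each array's 75th percentile lay between 210 and 325 signal units, 62.3% to 68.3% of probes were well above background and no spot was saturated. The 10 podocyte markers, Nphs1 among them, all passed the filter, and so did 12 of 12 markers of the proximal tubule, which lies outside the glomerulus. In ob/ob against wild-type mice on vehicle, 6 of the 10 podocyte markers were called lower (limma, Benjamini-Hochberg adjusted p under 0.05). Of the 12 monocyte and macrophage markers 9 were called higher, where 7.55% of all features were called. The mean was lower for all 10 podocyte markers and higher for 11 of the 12 macrophage markers. Of the 10 mesangium markers 4 were called higher in this comparison, and the mean was higher for all 10. Of 8 erythroid markers 4 were tested, and none was called in it. In enarodustat against wild type 3 of these 4 were called higher, where 10.2% of all features were called. The log2 of the summed podocyte signal ran from 10.1 to 10.3 on the wild-type arrays, from 9.61 to 9.97 on the ob/ob vehicle arrays and from 9.39 to 9.73 on the enarodustat arrays. The same sum for the macrophage markers ran from 6.05 to 6.23, from 6.59 to 6.64 and from 6.23 to 6.55. The part of this shift in cell markers in the results below was not tested, and in bulk RNA fewer cells of a type and less RNA per cell cannot be told apart.

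E2f1, the E2F family member that activates the genes of S phase, was lower in ob/ob glomeruli and was the single member of 30 called between the vehicle groups, where 7.55% of all features passed (Benjamini-Hochberg adjusted p under 0.05). Its values were 1.68, 1.82 and 1.57 on the wild-type arrays, 0.32, 0.60 and 0.21 on the ob/ob vehicle arrays, and 0.67, 0.32 and 0.72 on the enarodustat arrays, replicates 1 to 3. All 3 wild-type arrays stood above all 6 ob/ob arrays, and the ob/ob groups overlapped. In the vehicle comparison E2f1 fell by 1.32 ± 0.16 (SE) on the log2 scale, a level 2.49-fold lower (limma, Benjamini-Hochberg adjusted p = 0.0035). Enarodustat-treated ob/ob mice were also below wild type, by 2.17-fold (log2 difference -1.12 ± 0.16, limma adjusted p = 0.0056). Between the ob/ob groups the difference was 0.20, with a 95% interval of -0.16 to 0.55. The array carries 1 probe for E2f1, at chr2:154385798-154385857 of build mm9 (the build of the array's annotation), and it was well above background on all 9 arrays. The adjusted p of the vehicle comparison ran from 0.000517 to 0.0177 over the alternatives tried. No second probe is at hand to check it against.

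Neither of the other tested S phase regulators was called. Ccne1, the cyclin that fires S phase with Cdk2, was at -2.27, -1.96 and -2.44 in wild type, -2.28, -2.07 and -2.31 in ob/ob on vehicle, and -1.58, -1.88 and -1.23 on enarodustat. The enarodustat arrays lay above all 6 others. The difference was 0.65 ± 0.19 against ob/ob vehicle and 0.66 ± 0.19 against wild type, but neither passed the test across all features (limma adjusted p = 0.683 and 0.0634). Without enarodustat replicate 2 the difference from wild type was called, at 0.82 (limma adjusted p = 0.0433). Foxm1, the transcription factor of the mitotic programme, was at -1.72, -1.67 and -2.68 in wild type, -1.77, -1.43 and -1.97 in ob/ob on vehicle, and -1.39, -2.21 and -1.16 on enarodustat, so that the groups overlapped throughout. Ccne2, the second E cyclin, was well above background on wild-type replicate 3 alone and was not tested.

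**Figure D1:**
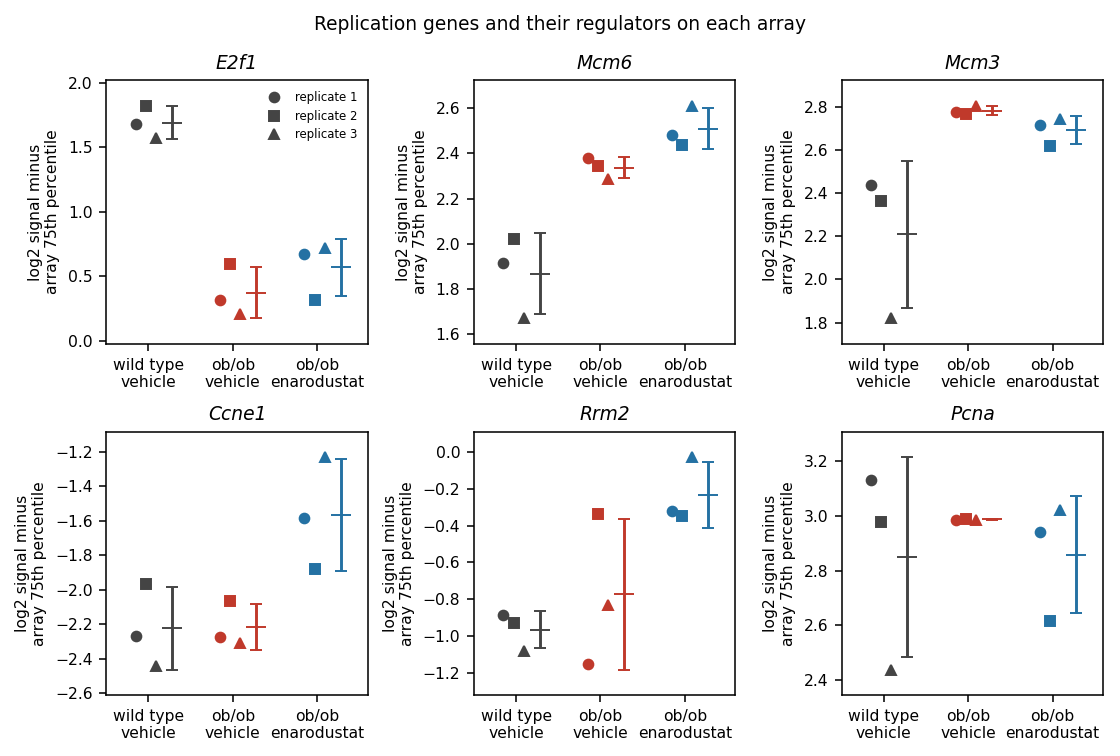
Values of E2f1, Mcm6, Mcm3, Ccne1, Rrm2 and Pcna on each of the 9 arrays, as log2 signal minus the array's 75th percentile; marker shapes are replicates 1 to 3 and the bars give the mean ± SD of 3 arrays. E2f1 is high on the 3 wild-type arrays, Mcm6 and Mcm3 are low there, and Ccne1 is highest on the 3 enarodustat arrays; the vertical scale differs between panels and does not start at 0.

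Among the 8 licensing genes, Mcm6, a subunit of the hexameric helicase, rose in the enarodustat group against wild type. Its values were 1.91, 2.02 and 1.67 in wild type, 2.38, 2.35 and 2.29 in ob/ob on vehicle, and 2.48, 2.44 and 2.61 on enarodustat. The 3 groups did not overlap, with wild type lowest and enarodustat highest. Against wild type the rise on enarodustat was 0.64 ± 0.12 (SE, log2; 1.56-fold, limma adjusted p = 0.0141), which with E2f1 makes 2 members called in a comparison where 10.2% of all features were. The difference of 0.47 ± 0.12 between ob/ob and wild type on vehicle missed the threshold (limma adjusted p = 0.0514), and that of 0.17 between the ob/ob groups had an interval of -0.10 to 0.45. A second, dimmer Mcm6 probe gave -0.02 for the vehicle comparison and 0.18 for enarodustat against wild type. With the 2 probes averaged, the call against wild type was lost (limma adjusted p = 0.156). Without enarodustat replicate 3, the only array on the second slide, it was lost as well (limma adjusted p = 0.0502).

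Mcm3, another subunit of the ring, was at 2.44, 2.37 and 1.82 in wild type, 2.78, 2.77 and 2.81 in ob/ob on vehicle, and 2.71, 2.62 and 2.74 on enarodustat. Every ob/ob array was above every wild-type array, and the low value of wild-type replicate 3 widened the gap. The difference was 0.57 ± 0.16 on vehicle and 0.48 ± 0.16 on enarodustat, and neither passed (limma adjusted p = 0.0699 and 0.0984). The 4 Mcm3 probes all had higher means in both ob/ob groups than in wild type. Mcm2 ran from -1.18 to -0.46 in wild type, from -0.82 to -0.36 in ob/ob on vehicle and from -0.71 to -0.38 on enarodustat, with groups that overlapped. Mcm4, Mcm5 and Mcm7, the remaining subunits, differed from wild type by 0.01 to 0.16 in ob/ob on vehicle and by 0.08 to 0.40 on enarodustat. For Mcm7 a second probe gave -0.68 in the vehicle comparison, where the brighter one gave 0.01.

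Cdc6, which loads the helicase, had a lower mean in ob/ob mice. It was at -1.37, -1.31 and -1.06 in wild type, -1.95, -1.44 and -1.54 in ob/ob on vehicle, and -1.32, -1.66 and -1.42 on enarodustat, so that the vehicle groups did not overlap. The difference of -0.39 ± 0.17 did not pass the test (limma adjusted p = 0.198). Cdt1, its partner in loading, differed by 0.27 on vehicle. Over the 8 licensing genes, none was called between the vehicle groups or between the ob/ob groups, beside 7.55% and 0% of all features. In enarodustat against wild type 1 of the 8 was called, beside 10.2% of all features.

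Of the genes that act at the replication fork or supply nucleotides, Rrm2 was the one that stood higher on enarodustat. This gene encodes the regulated subunit of ribonucleotide reductase, the enzyme that makes deoxyribonucleotides. It was at -0.89, -0.93 and -1.08 in wild type, -1.15, -0.34 and -0.83 in ob/ob on vehicle, and -0.32, -0.35 and -0.03 on enarodustat. The enarodustat arrays were above all wild-type arrays and touched the range of ob/ob on vehicle, whose replicate 2 was as high. The difference against wild type was 0.73 ± 0.20 (limma adjusted p = 0.0548) and against ob/ob vehicle 0.54 ± 0.20 (0.708). The difference from wild type was called without ob/ob vehicle replicate 1 or 2 and under 4 other alternatives (limma adjusted p from 0.0256 to 0.0496). Pcna, the sliding clamp of the DNA polymerases, was at 3.13, 2.98 and 2.44 in wild type, at 2.99, 2.99 and 2.985 in ob/ob on vehicle, and at 2.94, 2.62 and 3.02 on enarodustat. Its differences were 0.14 on vehicle, with an interval of -0.29 to 0.57, and 0.01 for enarodustat against wild type. Tyms, thymidylate synthase, differed by 0.21 on vehicle, and 1 of its 3 probes had the opposite sign.

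The markers of cycling cells did not separate the groups. Mki67, which encodes the Ki-67 antigen, was at 0.69, 0.52 and -0.37 in wild type, 0.46, 1.04 and 0.20 in ob/ob on vehicle, and 0.83, 0.06 and 1.31 on enarodustat. Top2a, the topoisomerase that untangles sister chromatids, was at -0.75, -1.20 and -2.32, at -1.14, -0.40 and -1.61, and at -0.77, -1.61 and -0.46. In both genes all 3 groups overlapped, and wild-type replicate 3 was the lowest of the 9. Differences on vehicle were 0.28 for Mki67 (95% interval -0.60 to 1.16) and 0.37 for Top2a (-0.70 to 1.45). For enarodustat against ob/ob vehicle they were 0.17 (-0.71 to 1.05) and 0.10 (-0.97 to 1.18). The upper ends of these intervals lie above a 2-fold rise. Another, dim Top2a probe differed in sign on vehicle.

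Cdk1, the kinase that drives entry into mitosis, was at -2.59, -3.27 and -4.65 in wild type, -2.34, -2.11 and -3.16 in ob/ob on vehicle, and -2.44, -3.28 and -1.73 on enarodustat. Its mean was higher in both ob/ob groups, by 0.97 ± 0.57 and 1.02 ± 0.57, but the groups overlapped and neither difference passed (limma adjusted p = 0.347 and 0.291). Its partner Ccnb2, whose promoter is printed with that of Cdk1, was at -0.44, -0.62 and -1.77 in wild type, -0.39, 0.11 and -1.02 in ob/ob on vehicle, and -0.15, -1.003 and 0.34 on enarodustat. The lowest arrays of each group were the same as for Cdk1, and the difference on vehicle was 0.51 ± 0.46. Ccna2, the cyclin of S phase and G2, differed by 0.28.

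Ccnb1, the other B cyclin, was the exception among the mitotic genes. It was at -2.97, -2.84 and -0.06 in wild type, -2.51, -2.13 and -3.26 in ob/ob on vehicle, and -2.45, -2.99 and -1.99 on enarodustat. Wild-type replicate 3, where the other mitotic members were lowest, held by far its highest value. The mean difference on vehicle was -0.68 ± 0.72 with that array and 0.27 without it, so the direction rests on 1 array. The value comes from 1 of 4 Ccnb1 probes, and the other 3 were not well above background on any array.

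**Figure D2:**
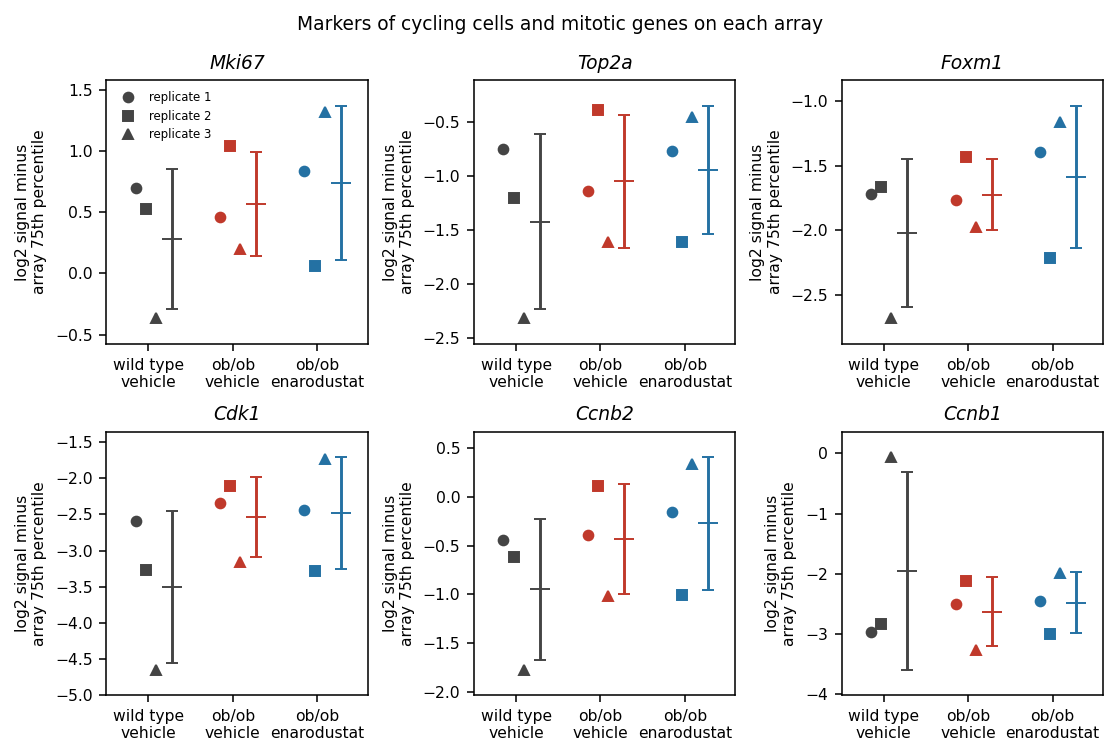
Values of Mki67, Top2a, Foxm1, Cdk1, Ccnb2 and Ccnb1 on each of the 9 arrays, as log2 signal minus the array's 75th percentile, with the mean ± SD of 3 arrays; marker shapes are replicates 1 to 3. Wild-type replicate 3 is the lowest wild-type array for 5 of these genes and the highest for Ccnb1, at -0.06; the vertical scale differs between panels and does not start at 0.

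Of the kinases, checkpoint proteins and exit factors of mitosis, 7 of 9 could be tested and none was called in any comparison. Birc5 (survivin) and Cdca8 (borealin), which with Aurkb form the chromosomal passenger complex, differed on vehicle by 0.50, 0.36 and -0.19, the last being Aurkb, and a second, dim Cdca8 probe had the opposite sign. Plk1 and Aurka, kinases of spindle assembly, differed by 0.12 and 0.16, Cdc20, the activator of the anaphase-promoting complex, by 0.42, and the checkpoint kinase Ttk by 0.89 ± 0.61. In enarodustat against wild type Birc5 differed by 0.73, with a 95% interval of 0.03 to 1.44, which was not called over all features (limma adjusted p = 0.169). Ttk was also the member with the most negative difference between the ob/ob groups, -0.57 ± 0.61. It was well above background on 7 of 9 arrays, whereas the other 29 tested members were so on all 9. Ttk passed the filter only through ob/ob on vehicle, the group where its mean was highest. The filter thus favours its rise on vehicle and its fall between the ob/ob groups. When probes had to be well above background on all 9 arrays, 25 of 29 members were above 0 on vehicle, with a median of 0.27. The 3 tested spindle factors, Kif20a, Nusap1 and Tpx2, differed by 0.27 to 0.50 on vehicle and by 0.05 to 0.29 between the ob/ob groups. Bub1 and Bub1b, checkpoint proteins at the kinetochore, and Kif11, the motor that separates spindle poles, did not pass the filter. Their probes were well above background on at most 6, 4 and 3 of the 9 arrays.

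**Figure D3:**
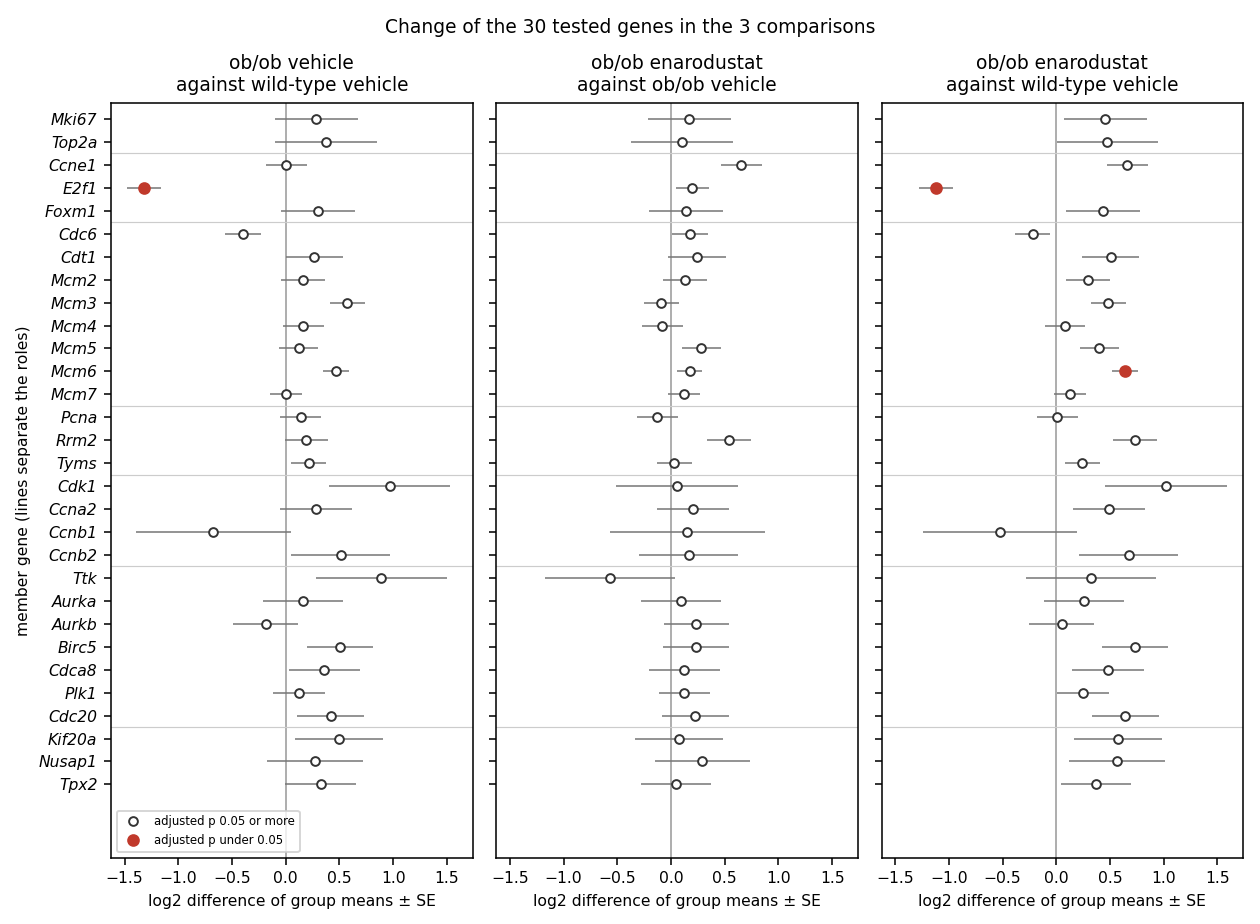
Difference of group means on the log2 scale, with its standard error, for the 30 tested genes in the 3 comparisons, grouped by role from cycling-cell markers at the top to spindle factors at the bottom; filled points passed the test. E2f1 is the filled point in both comparisons with wild type, Mcm6 is filled only for enarodustat against wild type, and no point is filled for enarodustat against ob/ob vehicle.

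Counted together, 1 of the 30 members was called in ob/ob against wild type on vehicle, beside 7.55% of all features. In enarodustat-treated ob/ob mice against wild type 2 were called, beside 10.2% of all features. Between the ob/ob groups no member was called and no feature was (limma, 0% of features). At an unadjusted p under 0.05 the members numbered 4 on vehicle, 2 between the ob/ob groups and 6 against wild type, where the shares of all features were 23.5%, 7.01% and 26.8%. Groups did not overlap for 4, 3 and 5 members, beside 30.7%, 16% and 30.8% of all features. In this fit the members' share was below that of all features in the comparisons with wild type on each of these counts. With 1 and 2 of 30 called, the share of calls lay near that of all features. Nothing about the members is read from it, and the count called differed between the processing alternatives given below.

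Most members nevertheless had a higher mean in ob/ob mice: 26 of 30 on vehicle, with a median log2 difference of 0.27, where 52.2% of all features were above 0 with a median of 0.02. Between the ob/ob groups 26 of 30 were above 0 with a median of 0.14, beside 44.7% and a median of -0.03. That median was -0.013 without enarodustat replicate 3 and 0.02 without ob/ob vehicle replicate 3. Against wild type, enarodustat gave 27 of 30 and 0.44, beside 49.4% and -0.01. These comparisons share samples and are not independent of each other. The median on vehicle rested on wild-type replicate 3: without it the median was -0.0079 and 15 of 30 members were above 0. Against wild type the median of enarodustat fell to 0.11 without the same array. The members' standard error had a median of 0.31, against 0.17 over all features.

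That larger spread ran together across the members. Within wild type, replicate 3 was the lowest array for 27 of 30 members and replicate 1 for the other 3. Within ob/ob on vehicle, replicate 3 was lowest for 23 and replicate 2 highest for 26, and within enarodustat replicate 2 was lowest for all 30 tested. Over all features, these arrays were lowest for 47.3%, 33.2% and 39.4%. For the 16 tested mitotic genes and cycling-cell markers the order was the same in every gene of ob/ob on vehicle, replicate 2 highest and replicate 3 lowest. The member median per array was -0.73, -0.77 and -1.19 in wild type, -0.78, -0.36 and -0.98 in ob/ob on vehicle, and -0.35, -1.003 and -0.32 on enarodustat, so that the arrays of a group lay further apart than the medians of the groups. Among mitotic factors that are no members the same arrays were lowest for most genes: wild-type replicate 3 for 33 of 41, ob/ob vehicle replicate 3 for 26 and enarodustat replicate 2 for 31. Other replication factors shared this in wild type, where replicate 3 was lowest for 32 of 44. In the ob/ob groups they stood near the share of all features, with 15 of 44 lowest on ob/ob vehicle replicate 3 (34.1%), fewer than the 18 on replicate 1, and 20 of 44 on enarodustat replicate 2 (45.5%).

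Markers of nephron segments outside the capillary tuft were highest on the array where most members were lowest, those of the distal nephron in every group and those of the proximal tubule in 2 of the 3. The median of the 9 distal nephron markers was -2.34, -0.61 and 1.42 in wild type, -2.14, -0.27 and 1.82 in ob/ob on vehicle, and 1.70, 2.49 and 1.31 on enarodustat, highest in each group on the array where most members were lowest. The log2 of their summed signal was highest on the same arrays, and 1 of the 9 was called, higher in enarodustat against wild type. The median of the 6 markers of the parietal epithelium, which lines Bowman's capsule, was likewise highest on those arrays, at 0.27, 0.88 and 1.47, though their summed signal was not so in wild type. Across groups the distal order did not hold. Enarodustat replicates 1 and 3 had distal medians near that of wild-type replicate 3 but the highest member medians, -0.35 and -0.32 against -1.19. In ob/ob on vehicle the distal median was lowest on replicate 1, while the member median was highest on replicate 2. The part of distal and parietal cells' RNA in the members' spread was not tested.

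The median of the proximal tubule markers was 0.62, -0.25 and 3.51 in wild type, -0.41, 0.26 and -2.34 in ob/ob on vehicle, and -0.36, 2.45 and -0.60 on enarodustat. All 12 were tested, none was called in any comparison, and the log2 of their summed signal ran from 5.66 to 8.99, from 3.59 to 5.38 and from 4.78 to 7.36. The arrays where the members were lowest in wild type and on enarodustat were those with the highest tubule markers, whereas in ob/ob on vehicle the lowest array for most members had the lowest tubule markers of all 9. With the tubule markers' mean as a covariate, the members' median on vehicle was -0.03 in place of 0.27, with 12 of 30 above 0, while between the ob/ob groups it was 0.35 in place of 0.14, with 28 of 30 members above 0. E2f1 stayed called in both comparisons with wild type, and Mcm6 stayed called in enarodustat against wild type. The part of proximal tubule RNA in the members' spread was not tested beyond this.

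**Figure D4:**
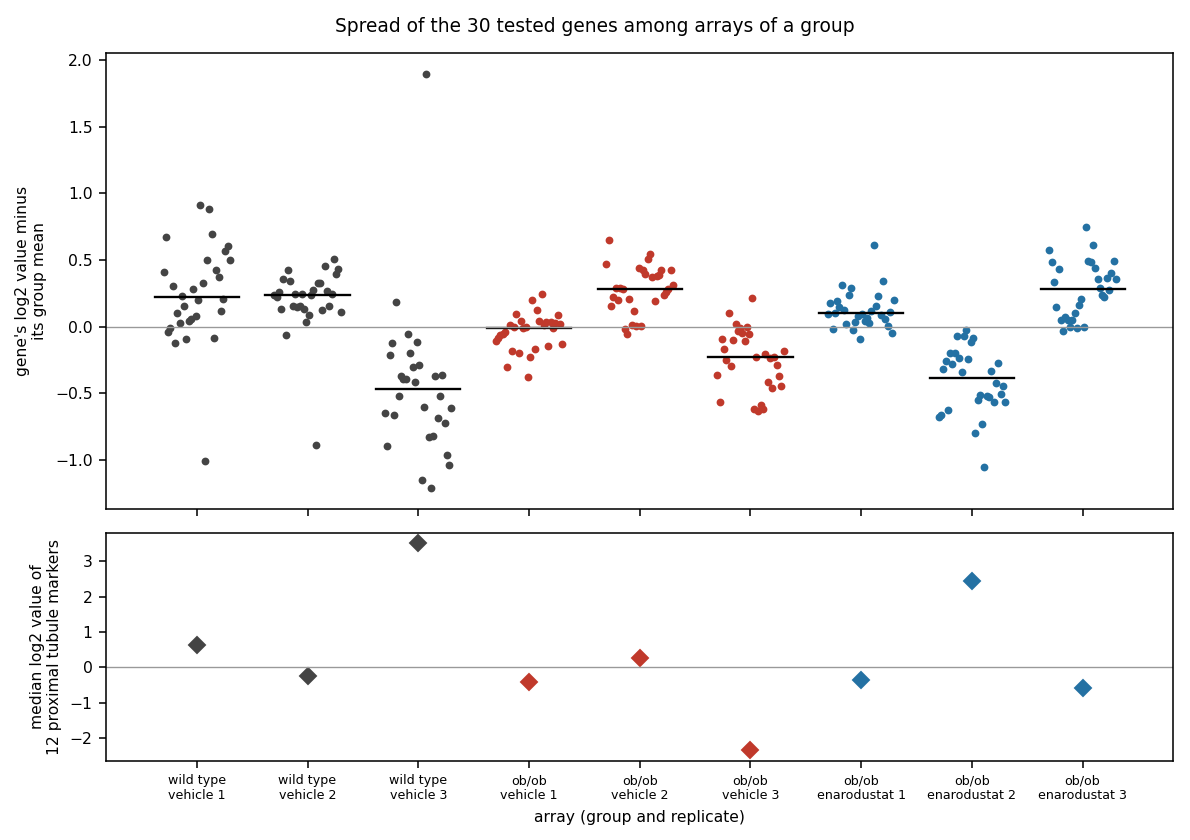
Top, each of the 30 tested genes as its log2 value minus its own group mean, by array, with the median as a bar; bottom, the median log2 value of the 12 proximal tubule markers on the same arrays. The members sit low on wild-type replicate 3, ob/ob vehicle replicate 3 and enarodustat replicate 2, and tubule markers are high on the first and last of these and lowest on the middle one; the lone high point on wild-type replicate 3 is Ccnb1.

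Upstream of the members, the list of D cyclins, their kinases, the pocket proteins and the other E2F factors had 21 genes, all tested. On vehicle 3 were called higher and none lower, beside 7.55% of all features called, and 18 of the 21 had a higher mean. Those called were Ccnd1, the D cyclin that starts the cycle in response to growth factors, higher by 1.06 ± 0.15 (2.09-fold, limma adjusted p = 0.0051), E2f7, an E2F that represses, by 0.73 ± 0.17 (0.0406), and Cdk6, a kinase partner of D cyclins, by 0.51 ± 0.13 (0.0455). Ccnd1 was at 4.002, 3.98 and 3.58 in wild type, 4.82, 4.99 and 4.95 in ob/ob on vehicle and 4.92, 4.82 and 5.12 on enarodustat, with every ob/ob array above every wild-type array. Against wild type, enarodustat-treated mice had higher Ccnd1 (1.098) and E2f7 (1.13), both called. The E2f7 values come from 1 of 2 probes that passed the filter. The other, also well above background on all 9 arrays, differed by -0.13 on vehicle and by -0.17 for enarodustat against wild type. With the probes of a gene averaged, E2f7 differed by 0.30 on vehicle, no longer called, and by 0.48 against wild type, still called. Ccnd1 was called under every alternative run, while the vehicle calls of E2f7 and Cdk6 were lost under 14 and 15 of 21.

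Of 44 other replication factors, all tested, 1 was called higher and 1 lower on vehicle, beside 7.55% of all features called, and 31 had a higher mean. Rpa1, the large subunit of the complex that coats single-stranded DNA in replication and repair, rose by 1.59 ± 0.21 (3.02-fold, limma adjusted p = 0.0043). It was at 3.75, 3.85 and 3.33 in wild type, 5.30, 4.84 and 5.56 in ob/ob on vehicle and 5.77, 5.53 and 5.70 on enarodustat, and its second probe showed the same order of groups. Cdc45, which joins the MCM ring to make the active helicase, fell by 0.50 ± 0.11 (limma adjusted p = 0.0277), and a second, dim probe had the opposite sign. Its call was lost under 12 of 21 alternatives. Both genes were called in the same direction in enarodustat against wild type, at 2.02 and -0.45, though the second of these calls was lost under 14 of 21 alternatives.

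Of 48 other mitotic factors 41 were tested and none was called on vehicle. The smallest p-values there belonged to the condensin subunits Ncapg and Ncaph, at -0.78 ± 0.20 and 1.03 ± 0.27 (limma adjusted p = 0.0567 and 0.059), and a second Ncapg probe had the opposite sign. Against wild type on enarodustat, Ncaph rose by 1.47 ± 0.27 (limma adjusted p = 0.0141) and Kif14, a spindle midzone motor, fell by 0.82 ± 0.16 (0.0186). The Kif14 value comes from 1 probe of an Ensembl transcript, while its other 4 probes were well above background on at most 1 array. The Ncaph call was lost without enarodustat replicate 3 (limma adjusted p = 0.0515), and the Kif14 call without wild-type replicate 1, without enarodustat replicate 1 or 3 and with no filter on dim probes (0.0502 to 0.0612). Between the ob/ob groups none of the 3 lists had a called gene.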

How the data were processed

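The authors labelled total RNA with Cy3, hybridised it to one-colour Agilent mouse arrays and read the scans out by Agilent Feature Extraction 11.5.1.1, per the labels' protocols and the file headers. The deposited scanner files hold spot intensity as a background-subtracted processed signal that was not normalized between arrays, beside the mean signal and the median background, per the file headers. The authors' deposited value table is on the log2 scale and matched the log2 processed signal minus about the array's 75th percentile, so its scale, centring and direction were found from the values. The medians of its columns ran from -3.10 to -2.93.

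Control and outlier spots were left out. Each value is the log2 processed signal less the 75th percentile of its array. Probes that all 3 arrays of some group showed well above background were kept (36671 of 56605), and the probe with the highest mean stood for its gene. Limma 3.58.1 in R 4.3.3 fitted 3 groups to 9 arrays (lmFit, eBayes) and adjusted p over 24150 features by Benjamini-Hochberg; calls were at an adjusted p under 0.05. The script was tested on simulated data with the spread of all features. There 58.2% to 58.6% of 2-fold changes and 91.0% to 94.2% of 4-fold changes were called. The members' median standard error was larger than that of all features, 0.31 against 0.17. Intervals are 95%. Names and promoters come from RefSeq tables of GRCm38.p6, probe positions from mm9. Figures used matplotlib 3.10.9 in Python 3.11.15.

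The members, gene lists and alternatives were chosen with earlier results of these data known. Named with all array values were 12 set genes, called members and members at least 1 apart in log2 without overlap; Mcm3 and Ccnb2 were added after their values were seen. Of each further list, called genes and the 2 smallest p-values on vehicle are named.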

Additional observations from a re-analysis of the deposited data

How the results depend on the processing

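E2f1 kept its direction and its call in both comparisons with wild type under all 21 alternatives. Enarodustat against ob/ob vehicle gave 0 calls, of members and of all features, under every one. On vehicle 3 members were called with normexp (Mcm3 and Mcm6 besides E2f1), 2 when probes had to be well above background on all 9 arrays (Mcm6), 3 with array weights (Mcm3, Mcm6) and 3 with each probe as its own feature (Mcm3 and a second Mcm7 probe); the count stayed at 1 with any array left out. Against wild type on enarodustat 1 member was called with probes averaged, and 1 to 3 with arrays left out. All features called on vehicle numbered 1823, and 2049 with normexp, 1844 with probes well above background on all 9 arrays, 1005 with no filter, 4181 with array weights, 649 with the tubule covariate and 916 to 1774 with arrays left out. The 3 of 30 members called with array weights thus stand beside 4181 of 24150 features. Against wild type on enarodustat they numbered 2461, and 1227 with no filter, 4527 with array weights and 1215 to 2163 with arrays left out. The members' median ran with arrays left out from -0.0079 to 0.45 on vehicle, from -0.013 to 0.37 between the ob/ob groups and from 0.11 to 0.66 against wild type. Fewer samples or more dim features enter some of these fits; otherwise the cause was not tested.

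Among single members whose change was not called, with quantile normalization the sign turned, in ob/ob against wild type on vehicle Mcm7 -0.054, and in enarodustat against ob/ob vehicle Cdk1 -0.0005 and Tpx2 -0.0037, and in enarodustat against wild type Pcna -0.066. With normexp and quantile normalization the sign turned, in ob/ob against wild type on vehicle Mcm7 -0.065, and in enarodustat against ob/ob vehicle Tpx2 -0.0061, and in enarodustat against wild type Pcna -0.017. With probes averaged the sign turned, in ob/ob against wild type on vehicle Mcm7 -0.34, and in enarodustat against wild type Mcm7 -0.12. With array weights the sign turned, in ob/ob against wild type on vehicle Ccnb1 0.12, Ccne1 -0.16, Mcm2 -0.055, Mcm4 -0.034, Mcm7 -0.16, Plk1 -0.031, Nusap1 -0.0401 and Cdt1 -0.013, and in enarodustat against wild type Ccnb1 0.27, Mcm4 -0.059, Mcm7 -0.051, Pcna -0.075 and Aurkb -0.19. With the tubule covariate the sign turned, in ob/ob against wild type on vehicle Mki67 -0.10, Top2a -0.028, Ccna2 -0.0896, Ccnb1 0.21, Ccne1 -0.18, Mcm2 -0.024, Mcm4 -0.097, Mcm5 -0.011, Mcm7 -0.10, Pcna -0.14, Aurka -0.31, Plk1 -0.11, Nusap1 -0.18, Tpx2 -0.064, Tyms -0.006 and Foxm1 -0.13, and in enarodustat against ob/ob vehicle Ccnb1 -0.38, Mcm3 0.037, Mcm4 0.075 and Pcna 0.037, and in enarodustat against wild type Mcm4 -0.022, Pcna -0.098 and Aurkb -0.036. With the array median the sign turned, in enarodustat against ob/ob vehicle Cdk1 -0.007, Tpx2 -0.014 and Tyms -0.0304. With 1 array left out in turn (and with wild-type replicate 3 and enarodustat replicate 2 out together), differences that passed 0 ranged, in ob/ob against wild type on vehicle, Aurka -0.25 to 0.51, Aurkb -0.38 to 0.0403, Ccna2 -0.021 to 0.45, Ccnb1 -1.18 to 0.27, Ccne1 -0.10 to 0.14, Foxm1 -0.032 to 0.48, Mcm2 -0.023 to 0.34, Mcm4 -0.036 to 0.28, Mcm7 -0.15 to 0.13, Mki67 -0.041 to 0.49, Nusap1 -0.24 to 0.58, Pcna -0.069 to 0.28, Plk1 -0.056 to 0.24, Rrm2 -0.026 to 0.38 and Top2a -0.073 to 0.71. They ranged, in enarodustat against ob/ob vehicle, Aurka -0.085 to 0.35, Ccna2 -0.037 to 0.48, Ccnb1 -0.16 to 0.41, Ccnb2 -0.14 to 0.53, Cdca8 -0.11 to 0.41, Cdk1 -0.32 to 0.45, Foxm1 -0.079 to 0.45, Kif20a -0.12 to 0.33, Mcm4 -0.20 to 0.034, Mki67 -0.12 to 0.51, Plk1 -0.058 to 0.34, Top2a -0.18 to 0.43, Tpx2 -0.13 to 0.33 and Tyms -0.081 to 0.14. They ranged, in enarodustat against wild type, Aurka -0.15 to 0.60, Aurkb -0.14 to 0.31, Ccnb1 -1.03 to 0.68, Mcm4 -0.12 to 0.20, Mcm7 -0.027 to 0.25, Pcna -0.20 to 0.15 and Ttk -0.28 to 0.85. None of these members was called in the comparison concerned.

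Deviations of same-numbered arrays from their group means had correlations from -0.31 to 0.27, which cannot show whether the arrays were paired. The labels state no pairing, so the numbers were used only to name arrays. With the replicate number as a block, 1408, 0 and 1954 features were called in the 3 comparisons, with 1, 0 and 2 members. The second slide and scan hold enarodustat replicate 3 alone, so a slide block is the fit without that array and was not run apart. Without that array the Mcm6, Ncaph and Kif14 calls against wild type were lost, and the members' median between the ob/ob groups was no longer above 0. The Kif14 call was also lost without wild-type replicate 1 or enarodustat replicate 1. In these results the slide and the array cannot be told apart. The recount of lowest and highest arrays under other scalings, chosen after seeing the data, gave 27 or 28 members lowest on wild-type replicate 3, 21 to 23 lowest and 25 to 27 highest on ob/ob vehicle replicates 3 and 2, and 28 to 30 lowest on enarodustat replicate 2. Having 3 arrays a group limits the precision, and Bub1, Bub1b, Kif11 and Ccne2 had too little signal over background to be tested.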

Other observations

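Ccnb1 was not the only cell cycle probe to be bright on wild-type replicate 3 alone. The single probe of Ccne2 was at -4.06 there and between -7.51 and -6.72 on the other 8 arrays, and a Foxm1 probe that did not pass the filter was at -4.34 there and between -7.19 and -5.67 elsewhere. Each was well above background on that array only. The main Foxm1 probe was at its lowest on the same array, at -2.68. These probes were picked out after their values were seen.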
